A study of Mus musculus with 4 samples.

Results

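The Hox genes of the mouse were followed through single cells of the aortic arch. They are all gene symbols of the deposited count tables that read Hox, a letter from a to d and a number, which gives 39 genes in 40 of 31053 rows, because Hoxd4 is listed under 2 identifiers. The rule used names only and no measured value. The cells came from aortic arches with their branches and the surrounding perivascular tissue of male mice, 3 months old at the start, and single-cell RNA sequencing counted unique molecular identifiers (UMIs, tags that mark each captured mRNA molecule once). All mice carried loxP-flanked alleles of Nfe2l2, the gene of the antioxidant regulator Nrf2. The Nrf2flox/flox mice served as controls, and the Nrf2Cdh5tKO mice also carried a Cdh5-Cre transgene, which is active in endothelial cells and in a proportion of leukocytes. The normocholesterolemic groups received saline and a standard diet, and the atherosclerotic groups received 1 injection of a viral vector and a high-fat diet for 21 weeks. Cells of 4 mice were pooled for each normocholesterolemic group and of 3 mice for each atherosclerotic group, so that there were 4 libraries and 1 library per condition. Where 4 values follow each other below, they stand in the order normocholesterolemic Nrf2flox/flox, the library labelled normocholesterolemic Nrf2Cdh5tKO, atherosclerotic Nrf2flox/flox, and the library labelled atherosclerotic Nrf2Cdh5tKO.

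Hox genes encode homeodomain transcription factors that give cells their position along the head to tail axis of the embryo. They lie in clusters whose gene order follows the order of their expression along the body, so that low-numbered paralog groups are used towards the head and high-numbered groups towards the tail. In the pharyngeal arches, from whose arteries the aortic arch and its branches are built, neural crest and mesoderm cells use anterior members such as Hoxa2 and Hoxa3, and many adult fibroblasts and smooth muscle cells keep the Hox pattern of the place where they arose. The 39 genes fall into the HoxA cluster on chromosome 6 (11 genes), the HoxB cluster on chromosome 11 (10 genes), the HoxC cluster on chromosome 15 (9 genes) and the HoxD cluster on chromosome 2 (9 genes).

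Promoter sequences of 4 members that the results turn on are shown first. Of the 39 genes, 22 had an entry among the RefSeq promoters of GRCm38.p6, the assembly that the counts use under the name mm10. Each sequence is the 250 bases before the RefSeq start, written 5′ to 3′ on the strand of the gene, and none of the 4 overlaps an annotated exon. Hoxb4 is shown because it had the most UMIs, Hoxa2 because it is an anterior member that separated fibroblast groups, Hoxb8 because it separated fibroblasts from smooth muscle, and Hoxd8 because it was highest in endothelial cells. Capitals mark matches to TGATTNAT, a site type of Hox and Pbx pairs, and to TTTATG, the core of Cdx sites. Both strands were searched, and a match to the other strand reads ATNAATCA or CATAAA.
Hoxb4: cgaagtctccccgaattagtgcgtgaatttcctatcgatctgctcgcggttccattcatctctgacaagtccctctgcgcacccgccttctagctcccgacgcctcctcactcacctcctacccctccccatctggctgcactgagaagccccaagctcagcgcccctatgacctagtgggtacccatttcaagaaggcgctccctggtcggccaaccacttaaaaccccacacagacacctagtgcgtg
Hoxa2: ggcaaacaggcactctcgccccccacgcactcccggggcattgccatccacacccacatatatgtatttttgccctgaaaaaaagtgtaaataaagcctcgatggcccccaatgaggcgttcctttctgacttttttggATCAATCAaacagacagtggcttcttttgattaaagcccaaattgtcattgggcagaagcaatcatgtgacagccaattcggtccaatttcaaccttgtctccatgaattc
Hoxb8: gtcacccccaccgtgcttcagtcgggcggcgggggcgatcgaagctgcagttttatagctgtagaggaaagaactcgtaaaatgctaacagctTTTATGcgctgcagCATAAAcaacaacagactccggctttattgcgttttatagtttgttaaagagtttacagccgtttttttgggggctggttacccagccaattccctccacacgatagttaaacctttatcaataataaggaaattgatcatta
Hoxd8: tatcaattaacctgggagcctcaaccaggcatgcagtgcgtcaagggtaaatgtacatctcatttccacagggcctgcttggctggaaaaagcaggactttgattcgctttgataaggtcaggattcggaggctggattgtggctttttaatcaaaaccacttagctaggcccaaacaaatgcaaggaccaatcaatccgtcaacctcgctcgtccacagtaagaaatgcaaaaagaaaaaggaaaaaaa
The Hoxb4 window is chr11:96318017-96318266 on the plus strand, has 14 CpG sites and 58.0% GC, and holds neither motif. The Hoxa2 window is chr6:52164832-52165081 on the minus strand, has 6 CpG sites and 46.4% GC, and holds TGATTNAT 111 bases before the start. The Hoxb8 window is chr11:96281655-96281904 on the plus strand, has 12 CpG sites and 44.4% GC, and holds TTTATG 157 and 143 bases before the start, once on each strand. The Hoxd8 window is chr2:74704365-74704614 on the plus strand, has 6 CpG sites and 44.4% GC, and holds neither motif. Among 32817 promoters of this length, 2.83% hold TGATTNAT and 10.8% hold TTTATG, and among the 24 promoters of the Hox genes 2 and 5 do. TGACAG, the core of Meis and Pknox sites (CTGTCA on the other strand, not capitalised above), is in 15.9% of all promoters and in 2 of the 24, one of them Hoxa2. These matches describe letters and not bound sites.

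The libraries held 8512, 3460, 1160 and 2467 barcodes with 12276546 to 98754487 UMIs, and 14148 of 15599 cells had 200 to 6000 genes and at most 15% mitochondrial UMIs. Pairs of libraries shared 1 to 7 barcodes, 22 barcodes in all. Cells were assigned to a class when they had at least 5 of its 8 marker genes and its marker score was highest, with the next score at most 50% of it. The gates held 7756 fibroblasts, 2088 smooth muscle cells, 138 endothelial cells and 2522 leukocytes, and 1644 cells had no gate. The gate rule makes each marker list highest in its own gate, so these sums are no check of the gates. The fibroblast list summed to 25321 to 27092 CPM (UMIs per 1000000 UMIs of the gate) in fibroblasts, against 1238 to 2081 CPM in smooth muscle cells. Nfe2l2 stood at 198, 400.2, 176 and 332 CPM in endothelial cells, so the libraries labelled Nrf2Cdh5tKO did not have fewer Nfe2l2 UMIs, and a 3′ tag need not lie in the deleted part. The endothelial sums were shallow, 90330 to 297302 UMIs per library against 6828398 to 53285365 in fibroblasts. All intervals below are exact at 95% and cover counting error only.

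The kept cells held 23905 Hox UMIs, 0.0140% of all their UMIs. Of the 39 genes, 30 had at least 1 UMI, 24 had at least 10 and 16 had at least 100, while 6 had 1 to 3 and 9 had none. The 9 genes without a UMI were Hoxa11, Hoxa13, Hoxb13, Hoxc10, Hoxc11, Hoxc12, Hoxd10, Hoxd11 and Hoxd12, all of the posterior groups. The 14 genes with the most UMIs, led by Hoxb4 with 5161, held 97.5% of the Hox UMIs. Of the members with at least 10 UMIs, 9 were of cluster A, 8 of cluster B, 4 of cluster C and 3 of cluster D. Levels below are CPM over the cells of a gate and library, counted from 3′ tags and therefore not divided by transcript length.

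In fibroblasts the 3 genes with the most UMIs were anterior, although Hoxa5 reached the level of Hoxb2 in the atherosclerotic Nrf2flox/flox library. Hoxb4 (chr11:96318267-96321638), a gene of the hindbrain and neck, stood at 37.5, 30.4, 47.4 and 41.1 CPM. Hoxb2, used in the hindbrain and the neural crest, stood at 28.4, 23.5, 30.0 and 26.9 CPM. Hoxa3, which patterns the third pharyngeal arch with its carotid artery, thymus and parathyroid, stood at 23.4, 26.8, 29.9 and 25.3 CPM. The lowest Hoxb4 library was above the highest Hoxb2 library by less than 1 CPM, and the Hoxb2 and Hoxa3 ranges overlapped. Hoxb3, a neighbour in the same pharyngeal domain, stood at 12.6, 12.9, 17.1 and 14.6 CPM, below all 3 in every library. Hoxa2, the selector of the second pharyngeal arch, stood at 9.20, 7.67, 6.44 and 9.48 CPM, and Hoxa4, a gene of the neck vertebrae, at 6.47, 5.31, 4.83 and 5.97 CPM. Their ranges met only at 6.44 and 6.47 CPM. Hoxb1, a gene of the hindbrain, had 3 UMIs in all fibroblasts.

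The central genes of fibroblasts were lower in the normocholesterolemic libraries and spread more between libraries. Hoxa5, a gene of the neck and upper chest that the lung needs, stood at 18.9, 15.8, 30.0 and 24.9 CPM, and Hoxb5, used in the vagal neural crest, at 7.64, 5.87, 14.1 and 13.5 CPM. Hoxa7 (chr6:52214491-52221854), a thoracic gene, stood at 4.02, 7.59, 24.5 and 14.5 CPM. For each of these genes both atherosclerotic libraries were above both normocholesterolemic ones. The thoracic HoxB genes had the same order: Hoxb6 stood at 3.90, 3.11, 8.49 and 8.36 CPM, and Hoxb7 at 2.65, 2.81, 8.05 and 6.94 CPM. Hoxb8 (chr11:96281905-96285315), which also acts in spinal cord and myeloid progenitors, stood at 2.16, 2.47, 11.7 and 6.79 CPM. Hoxc6, a thoracic gene also known from the mammary gland, stood at 1.13, 1.83, 6.74 and 4.25 CPM. Again the groups by diet did not overlap. The anterior genes Hoxb4 and Hoxb3 were separated in the same way, so this is no trait of the central genes alone. The share of all genes separated by diet in this way is not given here.

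In smooth muscle cells the leading genes were Hoxb2 with 34.3, 39.9, 49.6 and 39.6 CPM and Hoxb4 with 33.2, 38.6, 47.0 and 22.7 CPM. Hoxa3 stood at 21.1, 30.6, 39.2 and 29.6 CPM. Hoxb2 was above Hoxb4 in all 4 libraries, the reverse of the order in fibroblasts, although the ranges of the pair overlapped. Hoxa5 stood at 9.80, 12.1, 27.4 and 16.8 CPM, Hoxb3 at 10.5, 15.9, 28.7 and 13.7 CPM, and Hoxa4 at 9.52, 14.2, 7.83 and 10.3 CPM. Hoxa7 stood at 6.12, 8.13, 11.8 and 15.3 CPM, Hoxb5 at 5.98, 8.99, 10.4 and 9.04 CPM, and Hoxa2 at 4.38, 4.67, 6.53 and 4.67 CPM. Hoxa5, Hoxb3, Hoxa4 and Hoxa7 overlapped each other in range, while the highest Hoxa2 library stayed below the lowest of Hoxa5, Hoxb3 and Hoxa4. Hoxb6 and Hoxb7 lay between 2.42 and 10.4 CPM, and Hoxb8 and Hoxc6 between 0.188 and 2.49 CPM. The atherosclerotic Nrf2flox/flox library had 69 smooth muscle cells. Hoxc8 had no UMI in smooth muscle cells against 142 in fibroblasts, so its fibroblast level of 1.42 CPM was at least 14.6-fold higher, with 3 UMIs over all smooth muscle cells taken as the floor.

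Endothelial cells held 197 Hox UMIs in 138 cells. Hoxb4 stood at 43.7, 45.9, 91.3 and 33.2 CPM, from 13, 11, 13 and 3 UMIs, and Hoxa7 at 20.2, 37.5, 49.2 and 22.1 CPM, from 6, 9, 7 and 2 UMIs. Hoxa9, a posterior gene known from blood and endothelial progenitors, stood at 26.9, 4.17, 7.02 and 22.1 CPM, from 8, 1, 1 and 2 UMIs in 7 cells. Hoxd8 (chr2:74704615-74707933), a gene of the trunk that lymphatic and blood vessels use, stood at 16.8, 8.34, 7.02 and 22.1 CPM, from 5, 2, 1 and 2 UMIs in 9 cells. All 4 genes were detected in every library, but most single values rest on fewer than 10 UMIs. Of the other leading genes, Hoxa5 ranged from 8.34 to 56.2 CPM, Hoxb2 from 7.02 to 55.4, Hoxa3 from 4.17 to 49.2, Hoxa4 from 8.34 to 22.1 and Hoxb5 from 4.17 to 16.8. Hoxb3, Hoxb7, Hoxb8, Hoxb6 and Hoxa2 were each at 0 in 1 library or 2 and at most at 28.1 CPM elsewhere. Hoxd9 had 5 UMIs and Hoxa10 had 3. No HoxC UMI was found in endothelial cells: 0 of 138 cells had Hoxc6 or Hoxc8, with an upper limit of 2.64% for each.

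Leukocytes, which arise from blood progenitors and not from the vessel wall, had few Hox UMIs in 2522 cells, 9.14 CPM for all members together against 172 CPM in fibroblasts. Hoxb4 stood at 3.80, 2.42, 6.75 and 3.50 CPM, Hoxa7 at 0.774, 0.968, 1.76 and 0.875 CPM and Hoxb2 at 1.06, 0.968, 0.587 and 0.583 CPM. Hoxb4 was above both others in every library. All other members stayed at or below 0.875 CPM in every library, and Hoxb8 had no UMI. Hoxb4 and Hoxb2 had 104 and 25 UMIs in leukocytes against 3688 and 2705 in fibroblasts, so the pair did not keep 1 ratio across the gates. Among the leukocytes, Hoxb4 stood at 3.94 CPM in 1423 mononuclear phagocytes, at 2.05 CPM in 773 T and NK lymphocytes and at 7.35 CPM in 195 B lymphocytes (10 UMIs). At least 1 Hox UMI was found in 68.9% of fibroblasts, 76.1% of smooth muscle cells, 58.7% of endothelial cells and 8.60% of leukocytes, at median depths of 13009, 15448, 4623 and 9092 UMIs. With each cell thinned to 2000 UMIs, which left out 351, 73, 13 and 34 cells, the shares were 27.5%, 26.7%, 36.8% and 2.01%. Leukocytes served as the background, and the other 3 gates were above them at equal depth. In leukocytes the fibroblast marker list summed to 170 to 422 CPM. How much of their Hox UMIs came from RNA free in the cell suspension was not tested.

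**Figure D1:**
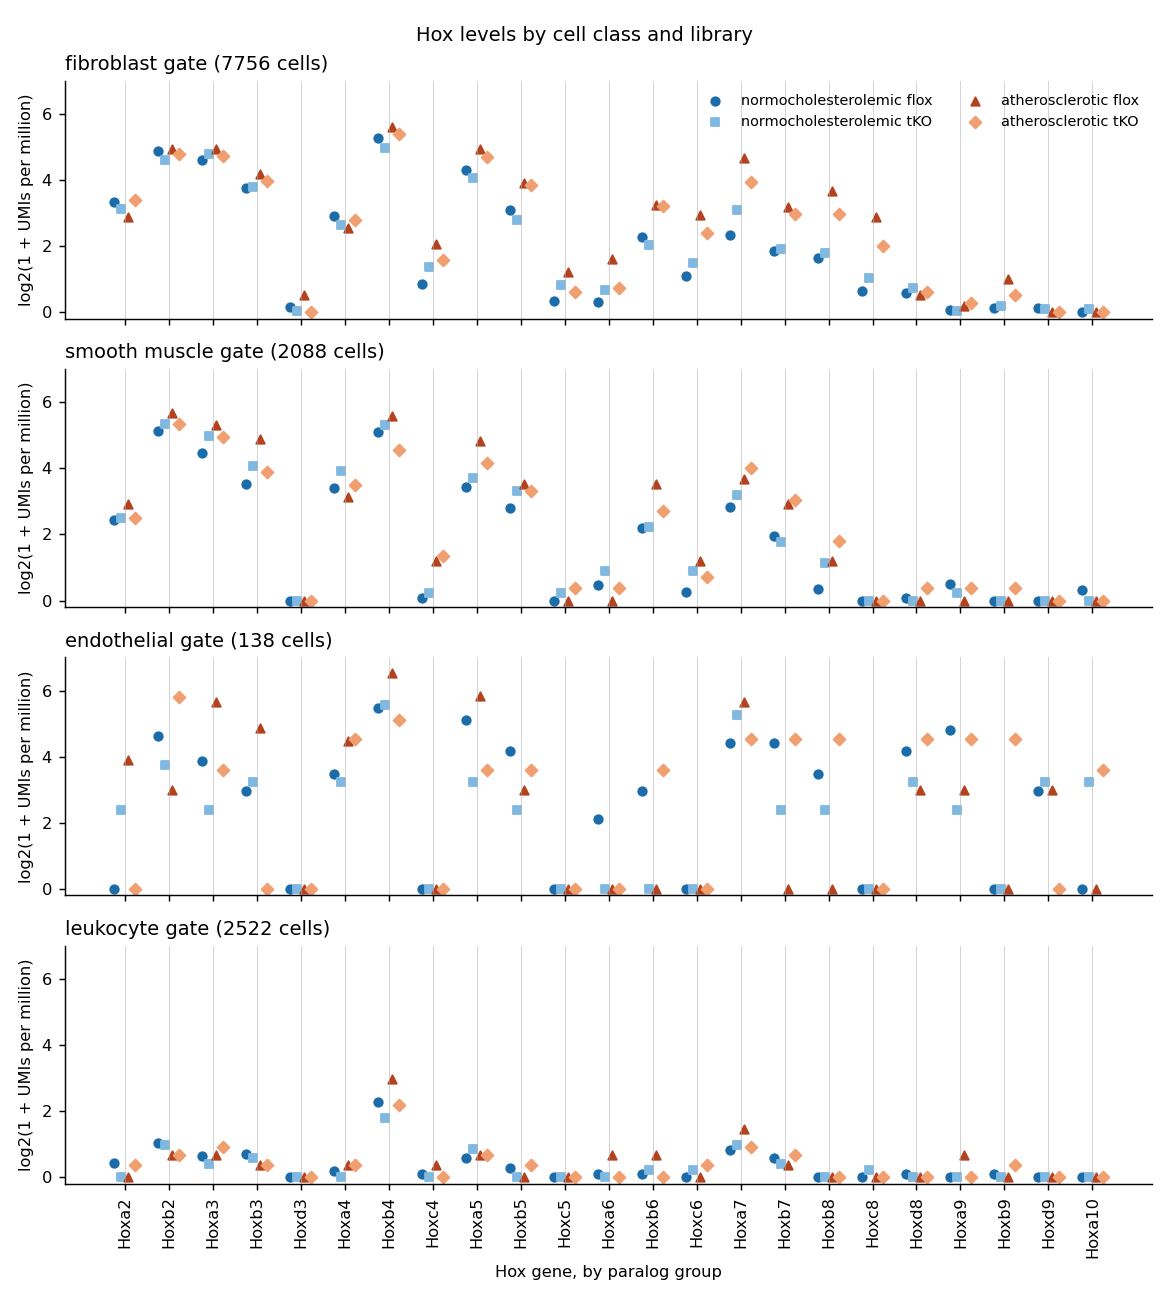
Levels of Hox genes with at least 10 UMIs, in order of paralog group, in the 4 gates, as log2(1 + CPM), with 1 marker per library. Hoxb4, Hoxb2 and Hoxa3 stand among the highest in fibroblasts and smooth muscle cells, HoxC genes appear mainly in fibroblasts, and leukocyte values are near 0 apart from those of Hoxb4.

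The remaining members were sparse. In fibroblasts Hoxc8 (chr15:102990607-102994111), a thoracic gene, stood at 0.563, 1.05, 6.44 and 2.99 CPM, and Hoxc4, a gene of the neck, at 0.826, 1.61, 3.22 and 2.02 CPM. Both were higher in each atherosclerotic library than in each normocholesterolemic one. Hoxc5 had 52 UMIs in fibroblasts, Hoxa6 52, Hoxd8 55, Hoxb9 22, Hoxd3 10, Hoxa9 8 and Hoxd9 7, at no more than 2.05 CPM in any library. Hoxa10, Hoxb1, Hoxc9, Hoxc13, Hoxd4 and Hoxd13 had 1 to 3 UMIs there, and Hoxd1 had its single UMI in a leukocyte. Hoxd3 shares 53.1% of its exonic bases with an overlapping annotated gene on the same strand, Hoxd4 39.1%, Hoxa2 15.0% and Hoxa3 8.01%, so that tags from these stretches cannot be told apart.

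Grouped by paralog number, fibroblasts and smooth muscle cells had almost all Hox UMIs in groups 1 to 3 and 4 to 8, and endothelial cells held a larger share of groups 9 to 13 than either. Groups 1 to 3 held 43.5% of the Hox UMIs of fibroblasts, 49.7% of smooth muscle cells, 21.8% of endothelial cells and 26.1% of leukocytes. Groups 4 to 8 held 56.2%, 49.97%, 67.0% and 71.9%. Groups 9 to 13 held 0.243% of the fibroblast UMIs and 0.347% of the smooth muscle UMIs but 11.2% of the endothelial ones, 22 of 197 (interval 7.13 to 16.4%). By library the endothelial share of groups 9 to 13 was 12.7%, 12.2%, 4.08% and 17.9%, above the fibroblast share of 0.162 to 0.457% each time. Leukocytes held 5 of 249 Hox UMIs there, 2.01% (interval 0.655 to 4.62%). By library their share was 0.781%, 0, 4.35% and 6.25%, from at most 2 UMIs each, so that in the atherosclerotic Nrf2flox/flox library it was above the endothelial one. In fibroblasts groups 1 to 3 held 46.1%, 47.2%, 33.5% and 36.6% by library, lower in both atherosclerotic libraries. In smooth muscle cells the same share was 49.6%, 50.3%, 50.8% and 48.6%, with overlapping intervals. With the 4 libraries weighted equally, the fibroblast share of groups 1 to 3 was 40.8%. By cluster, HoxA and HoxB held 39.8% and 56.6% of the fibroblast UMIs and 38.2% and 61.3% of the smooth muscle UMIs. HoxC held 3.15% in fibroblasts and 0.449% in smooth muscle cells, and HoxD held 7.61% in endothelial cells, mostly Hoxd8.

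**Figure D2:**
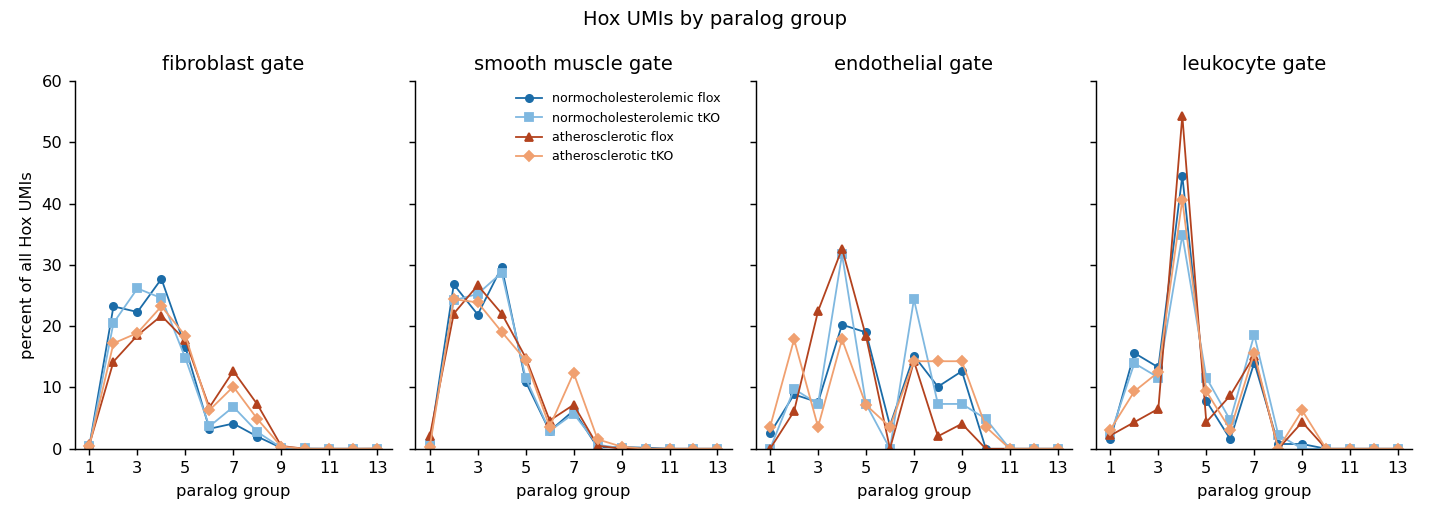
Share of all Hox UMIs (percent) in each of the 13 paralog groups, by gate, with 1 line per library. Fibroblast and smooth muscle lines peak between groups 2 and 4 and are near 0 from group 9 on, the second rise at group 7 in fibroblasts is highest in the 2 atherosclerotic libraries, and the endothelial lines extend to group 10.

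The classes were compared by edgeR's quasi-likelihood test on UMI sums per library and class, with the library as a block, Benjamini-Hochberg adjustment over 13156 genes and a threshold of 0.05. The pools of the libraries differ in diet and genotype label, so the tests measure the class difference over the 4 pools. Of the 39 Hox genes 14 passed the filter on low counts. A member that passed it only through the class where it was high, such as Hoxa9, Hoxd8 and Hoxb8, had to differ, so counts over the 14 describe these genes alone and no p-value is given for the differences of these 3 genes between classes. Against smooth muscle cells, 4 of the 14 were higher in fibroblasts (27% of all genes) and 2 were lower (19.7% of all genes), about the share of all genes, and their median difference was 0.13 on the log2 scale against 0.07 over all genes. Hoxb8 was higher by 2.03 (SE 0.45), with 5.78 ± 4.48 CPM against 1.32 ± 0.906 CPM (SD, n = 4 libraries) and higher in 4 of 4 libraries. Hoxd8 had 55 UMIs in fibroblasts and 2 in smooth muscle cells, 8.50-fold (interval 2.24 to 71.9), and was among the 4. Hoxa2 was higher by 0.86 (SE 0.28, adjusted p = 0.0178) in 3 of 4 libraries and Hoxa5 by 0.61 (SE 0.18, adjusted p = 0.0103) in 4 of 4. Hoxa4 was lower, with a difference of -0.88 (SE 0.23, adjusted p = 0.00382), at 5.65 ± 0.722 CPM against 10.5 ± 2.69 CPM, and its libraries did not overlap. The remaining call was Hoxb2, at -0.51 (adjusted p = 0.00999) and also without overlap. Hoxa7 did not differ beyond its spread, at -0.01 (SE 0.22). Without the normocholesterolemic Nrf2flox/flox library the calls of Hoxa2 and Hoxa5 were lost (adjusted p = 0.144 and 0.195), and so was that of Hoxd8. Hoxa2 was also lost without either library labelled Nrf2Cdh5tKO (adjusted p = 0.0524 and 0.111) and Hoxa5 without the atherosclerotic one (adjusted p = 0.0681). Without the low-count filter 8 Hox genes were called higher (18.1% of all genes).

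Against leukocytes, 13 of the 14 Hox genes were higher in fibroblasts (39.2% of all genes) and 12 in smooth muscle cells (37.4% of all genes). Apart from Hoxb4, the tested members stood at 1.76 CPM or less in every leukocyte library and passed the low-count filter only through the other classes. The direction was thus largely fixed by the filter, so these counts describe the genes alone and no p-value is given. The median log2 difference of the 14 genes was 4.94 for fibroblasts and 4.65 for smooth muscle cells (4.43 with Hoxb8 at its bound), against 0.10 and 0.05 over all genes. In fibroblasts Hoxb5 was higher by 5.84 (SE 0.46), Hoxa3 by 5.50 (SE 0.28), Hoxa2 by 5.24 (SE 0.45) and Hoxa4 by 5.20 (SE 0.44), with no overlap between the classes. In smooth muscle cells Hoxa4 was higher by 6.08 (SE 0.44), Hoxb5 by 5.64 (SE 0.49), Hoxa3 by 5.60 (SE 0.29) and Hoxb2 by 5.42 (SE 0.25). Hoxb8 was called in both, and against its 0 UMIs in leukocytes its level was at least 31.9-fold higher in fibroblasts and at least 6.45-fold higher in smooth muscle cells. Hoxb4 differed less, by 3.36 (SE 0.21) and 3.18 (SE 0.22). The members that were not called were Hoxa9 in both classes, with 8 UMIs in fibroblasts and 11 in smooth muscle cells, and Hoxd8 in smooth muscle cells, with 2 UMIs.

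In endothelial cells all 14 tested genes were higher than in leukocytes (17.4% of all genes), with a median of 4.50 against -0.23 over all genes. Here too all but Hoxb4 passed the low-count filter without the leukocytes, so the count describes these genes alone and no p-value is given. The count fell to 4 of 4 tested (17.5% of all genes) when only these 2 classes were fitted, since fewer genes then passed the filter, and it ran from 12 to 14 with 1 library left out. Hoxd8 had 10 UMIs in endothelial cells and 1 in leukocytes, 354-fold (interval 50.3 to 15353). Hoxa9 had 12 and 2 UMIs, 212-fold (interval 47.3 to 1953). Hoxa4 was higher by 6.01 (SE 0.82) and Hoxb5 by 5.63 (SE 0.98), each in 4 of 4 libraries. Hoxb8 was at least 70.8-fold higher and Hoxd9, which was not tested, at least 59.0-fold higher. The remaining 9 called genes had fitted differences from 3.37 for Hoxb4 to 5.07 for Hoxa5, among them Hoxa2 and Hoxb6 with 3 UMIs each. With 1 more marker needed to enter a gate the fitted value of Hoxa2 turned to -4.36 and was not called. Its call was also lost without the atherosclerotic Nrf2flox/flox library or the library labelled normocholesterolemic Nrf2Cdh5tKO. That of Hoxb6 was lost without the normocholesterolemic Nrf2flox/flox library or the library labelled atherosclerotic Nrf2Cdh5tKO.

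Against smooth muscle cells, 3 Hox genes were higher in endothelial cells (12% of all genes) and 2 were lower (19.8% of all genes). With 1 more marker needed to enter a gate Hoxa7 alone was higher and Hoxb2 alone lower of 12 tested (11.8% and 18% of all genes), and with only these 2 classes fitted Hoxa7 was the one call among 4 tested (18.5% of all genes higher). Hoxd8 and Hoxa9 did not pass the low-count filter in either. Hoxd8 was 201-fold higher (10 against 2 UMIs, interval 42.9 to 1889). Hoxa9 was higher by 5.09 on the log2 scale (SE 0.85), at 15.1 ± 11.2 CPM against 0.227 ± 0.183 CPM, and Hoxa7 by 1.25 (SE 0.42, adjusted p = 0.0291), at 32.2 ± 13.7 CPM against 10.3 ± 4.04 CPM. Hoxa7 was higher in 4 of 4 libraries without overlap. Hoxd8 and Hoxa9 were too, but they passed the low-count filter only through the 4 endothelial sums, which fixed this outcome. Hoxb2 stood at -1.28 (SE 0.34, adjusted p = 0.00729) and Hoxa3 at -1.10 (SE 0.39, adjusted p = 0.0398), each higher in 1 of 4 libraries, so their groups overlapped. Neither was called without normalization factors, where the median of all genes moved from -0.30 to 0.07, and leaving out any 1 library left at most 1 of the pair called. Both were also lost with only these 2 classes fitted (adjusted p = 0.0698 and 0.144), and Hoxa3 by DESeq2, without the low-count filter and with 1 more marker (adjusted p = 0.128, 0.0657 and 0.0741). Without the library labelled normocholesterolemic Nrf2Cdh5tKO both were lost and so was Hoxa7 (adjusted p = 0.202). Without the low-count filter 5 Hox genes were higher (8.18% of all genes) and 1 was lower (9.99% of all genes). The split of all calls moved with the scaling, from 1578 higher and 2608 lower to 2305 and 1491 without the factors and to 2143 and 1948 by DESeq2. Against leukocytes it moved from 2290 and 3241 to 3074 and 2135 without the factors and to 2870 and 2733 by DESeq2. The 19 endothelial cells with a UMI of Hoxd8 or of groups 9 to 13 came from all 4 libraries (8, 5, 3 and 3 cells). Their level of Gja5, an arterial gap junction gene, was 87.6 CPM against 97.4 CPM in the other 119 endothelial cells, and that of Fabp4, a capillary gene, was 17207 against 20570 CPM. In the endothelial gate the cardiomyocyte list summed to 3.36, 438, 0 and 0 CPM and the mesothelial list was at 0 in all 4 libraries.

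Fibroblasts were then divided by pairs or trios of genes that mark subsets of arch fibroblasts, with at least 2 of a subset's genes detected and no other subset reaching 2. The subsets held 633 Comp Fmod cells, with genes of tendon-like matrix, 902 Pi16 Dact2 cells, named for the adventitial progenitor marker Pi16, 732 Penk Epyc Fgf10 cells, 263 Cilp Meox1 cells and 57 Tfap2b Mab21l2 cells, named for a factor of the neural crest and smooth muscle of the ductus. A further 4857 fibroblasts met no subset and 312 met several. Pooled over the libraries, all Hox genes together stood at 229 CPM in Comp Fmod cells, 153 in Pi16 Dact2 cells, 165 in Penk Epyc Fgf10 cells, 88.6 in Cilp Meox1 cells and 495 in Tfap2b Mab21l2 cells. The order was not the same in each library: Cilp Meox1 cells stood at 108 CPM in 103 cells and 60.8 CPM in 142 cells of the normocholesterolemic libraries, below every other subset, but at 385 CPM in the 4 cells of atherosclerotic Nrf2flox/flox and 239 CPM in the 14 cells of the other atherosclerotic library. The value of 385 CPM (interval 247 to 573) was the highest of the 4 subsets found in that library, with Comp Fmod cells at 346 CPM inside its interval, and 239 CPM (interval 172 to 324) was above Pi16 Dact2 and Penk Epyc Fgf10 cells with 138 and 161 CPM. Each subset was tested against the mean of the other subsets in the same kind of fit, over 11524 genes of which 15 were Hox genes. Subsets with under 10 cells in a library were left out there, so that Cilp Meox1 cells entered with 3 libraries and Tfap2b Mab21l2 cells with the normocholesterolemic Nrf2flox/flox library alone.

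In Comp Fmod fibroblasts 3 Hox genes were higher than in the other subsets (11.3% of all genes). Hoxa3 stood at 36.2, 46.1, 41.5 and 31.5 CPM and was higher by 0.96 (SE 0.18, adjusted p = 0.000841), in 4 of 4 libraries and without overlap. Hoxa2 stood at 16.5, 19.8, 6.38 and 11.9 CPM and was higher by 1.17 (SE 0.23, adjusted p = 0.00105), in 4 of 4 libraries although the groups overlapped. Hoxb8 stood at 1.25, 9.23, 9.57 and 13.1 CPM and was higher by 3.08 (SE 0.99, adjusted p = 0.0372) in 3 of 4 libraries. Its call was lost without either library labelled Nrf2Cdh5tKO (adjusted p = 0.168 and 0.18) and against all other fibroblasts (adjusted p = 0.284). The call was also lost with a stricter subset gate, which needed at least 4 UMIs of the subset's genes (adjusted p = 0.0937). Without the normocholesterolemic Nrf2flox/flox library 9 of 13 tested Hox genes were called higher (10.3% of all genes), and without the low-count filter 6 were (7.08% of all genes). Hoxa7 stood at 2.75, 9.88, 36.7 and 27.3 CPM and did not pass (adjusted p = 0.0692).

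In Pi16 Dact2 fibroblasts 3 Hox genes were lower (10.4% of all genes). Hoxb4 stood at 27.7, 26.2, 36.2 and 25.5 CPM, a difference of -0.90 (SE 0.18, adjusted p = 0.00138), Hoxb3 at 11.01, 13.2, 9.65 and 12.6 CPM (-0.71, SE 0.21, adjusted p = 0.0187), and Hoxa4 at 4.11, 4.48, 1.81 and 5.79 CPM (-0.92, SE 0.29, adjusted p = 0.0317). All were lower in 4 of 4 libraries, and only Hoxa4 overlapped. None of these 3 was called without the normocholesterolemic Nrf2flox/flox library, the one that brings the Tfap2b Mab21l2 cells into the fit, where the differences were -0.23, -0.30 and -0.10. Hoxa4 was also lost without the atherosclerotic Nrf2flox/flox library or the library labelled normocholesterolemic Nrf2Cdh5tKO (adjusted p = 0.0547 and 0.0554), and Hoxb3 without the library labelled atherosclerotic Nrf2Cdh5tKO (adjusted p = 0.0758). Against all other fibroblasts neither was called, with Hoxa4 at -0.55 (adjusted p = 0.0896) and Hoxb3 at -0.29 (adjusted p = 0.177). Without the low-count filter 1 Hox gene was higher in this subset (8.76% of all genes). In Penk Epyc Fgf10 fibroblasts 2 Hox genes were lower (3.78% of all genes). Hoxb5 stood at 2.43, 2.76, 0 and 3.62 CPM (-2.08, SE 0.49, adjusted p = 0.00871) and Hoxb6 at 1.71, 1.10, 3.19 and 1.81 CPM (-1.66, SE 0.43, adjusted p = 0.0162). Both were below the other subsets in 4 of 4 libraries without overlap, and both calls were lost without the normocholesterolemic Nrf2flox/flox library (adjusted p = 0.243 and 0.386). Hoxb6 was also lost without the library labelled atherosclerotic Nrf2Cdh5tKO (adjusted p = 0.0794), and against all other fibroblasts 5 of 15 tested Hox genes were lower (4.65% of all genes). In this subset Hoxa3 and Hoxb4, at 21.7 to 36.6 and 35.0 to 51.5 CPM, stayed near the level of all fibroblasts.

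In Cilp Meox1 fibroblasts 6 Hox genes were lower than in the other subsets (2.94% of all genes). In the 3 libraries with enough cells, which leave out atherosclerotic Nrf2flox/flox, Hoxb4 stood at 26.9, 12.2 and 11.7 CPM (-1.63, SE 0.27, adjusted p = 0.00076), Hoxa3 at 16.4, 6.71 and 17.5 CPM (-1.45, SE 0.28, adjusted p = 0.00247) and Hoxa2 at 4.48, 1.97 and 5.83 CPM (-1.87, SE 0.38, adjusted p = 0.00366). These 3 were lower in 3 of 3 libraries without overlap. Hoxb5, at 0.746, 1.18 and 17.5 CPM (-2.46, SE 0.67, adjusted p = 0.0286), and Hoxa5, at 11.9, 5.92 and 35.0 CPM (-1.25, SE 0.37, adjusted p = 0.0426), were each higher in the library labelled atherosclerotic Nrf2Cdh5tKO, which had 14 such cells. The remaining call was Hoxb3. Without the library labelled normocholesterolemic Nrf2Cdh5tKO, which had 142 of the 263 cells, none of the 6 was called by edgeR's test (adjusted p from 0.0532 to 0.55), and without the normocholesterolemic Nrf2flox/flox library Hoxa5, Hoxb3 and Hoxb5 were lost. Hoxa5 and Hoxb3 were also lost by DESeq2 (adjusted p = 0.104 and 0.0606) and against all other fibroblasts (adjusted p = 0.109 and 0.539). Hoxa5 was lost with at least 4 UMIs of the subset's genes needed (adjusted p = 0.051). Hoxb3 was lost without the library labelled atherosclerotic Nrf2Cdh5tKO (adjusted p = 0.106). In the same cells 5 of 9 tested heart field factors were higher (5.82% of all genes), among them Tcf21, a factor of epicardial fibroblasts, by 3.41 (adjusted p = 7.03e-07), and Tbx20, a cardiac factor, by 5.72 (adjusted p = 1.56e-05).

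Tfap2b Mab21l2 fibroblasts had the highest Hox levels, with 6 genes higher (4.41% of all genes) in the 52 cells of 1 library. Hoxb4 stood at 162 CPM against a mean of 33.2 CPM in the other subsets of that library (2.36, SE 0.31, adjusted p = 9.02e-05), and Hoxb5 at 63.2 against 4.53 CPM (3.99, SE 0.56, adjusted p = 0.000154). Hoxa4 stood at 32.3 against 5.80 CPM (2.57, SE 0.49, adjusted p = 0.0023), Hoxb3 at 44.1 against 11.2 CPM (1.99, SE 0.41, adjusted p = 0.00476) and Hoxb6 at 19.1 against 2.94 CPM (2.86, SE 0.61, adjusted p = 0.00601). The remaining call was Hoxb2, which was lost with at least 4 UMIs of the subset's genes needed (1.26). The spread for these tests comes from the other subsets, and the lone library is assumed to vary like them. Hoxb8, Hoxc6 and Hoxc8 had no UMI in these cells. The fitted difference of Hand2, a factor of heart and pharyngeal mesenchyme, was -5.18, also from this 1 library. Hand2 was picked from the list of pharyngeal and neural crest factors. Other members of that list were higher in these cells, so no direction can be read for the list.

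**Figure D3:**
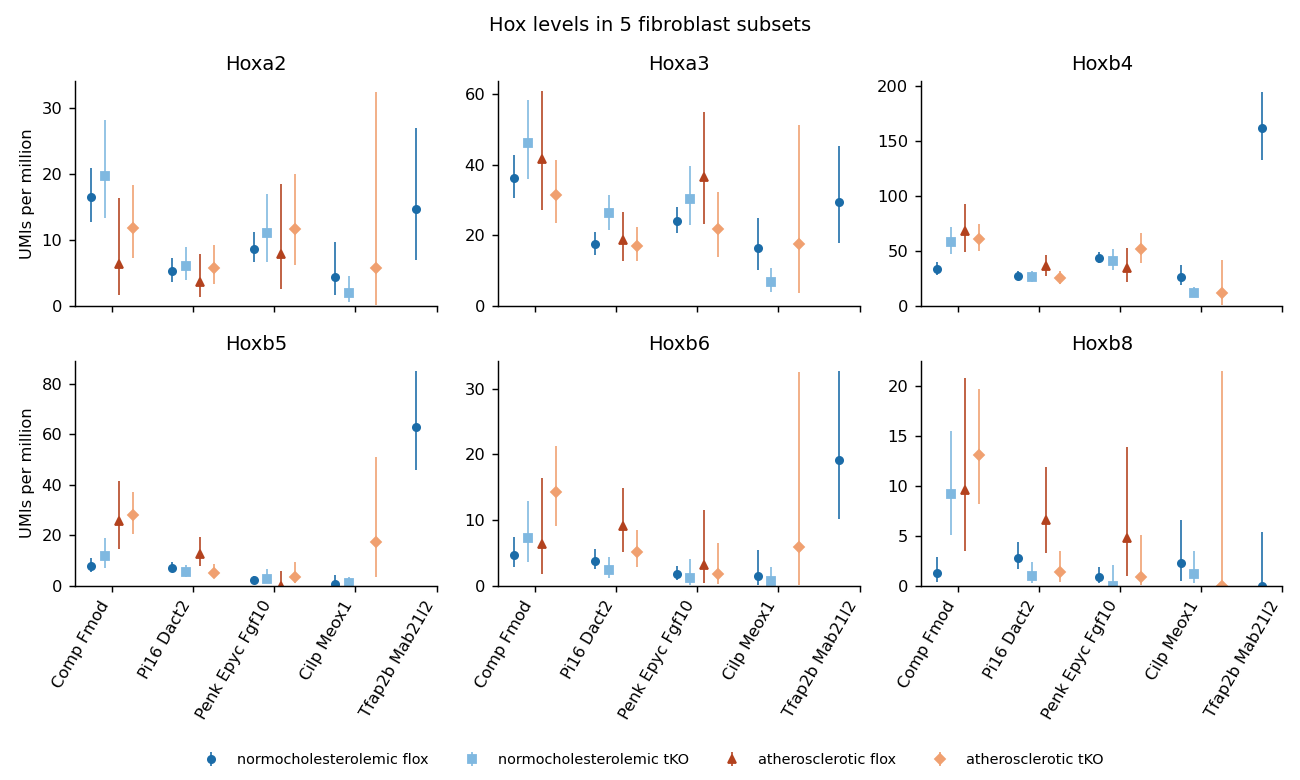
Levels (CPM) of 6 Hox genes in the 5 fibroblast subsets, with 1 marker per library that had at least 10 cells and bars for the 95% counting interval. Hoxb4, Hoxb5 and Hoxb6 are highest in the Tfap2b Mab21l2 cells, which 1 library supplied, and Hoxa2 and Hoxa3 of the Comp Fmod cells stand above those of the Pi16 Dact2 cells in each library.

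Between conditions there was 1 library on each side, so ratios with counting intervals are given and no test. A member was counted when its ratio passed 2-fold and its interval did not hold 0 on the log2 scale. The median ratio of all genes stayed within 0.1 of 0 on the log2 scale. In fibroblasts 11 of 20 Hox genes with at least 10 UMIs were higher in the atherosclerotic than in the normocholesterolemic Nrf2flox/flox library (2.79% of all genes), and 6 of 20 between the libraries labelled Nrf2Cdh5tKO (2.8% of all genes). No member was lower in either pair (3.28% and 4.01% of all genes). The log2 ratio of Hoxc8 was 3.52 (interval 2.82 to 4.24) in the Nrf2flox/flox pair and 1.51 (0.78 to 2.26) in the other. For Hoxb8 the ratios were 2.44 (2.01 to 2.87) and 1.46 (0.99 to 1.94), and for Hoxc6 2.58 (1.99 to 3.16) and 1.22 (0.64 to 1.80). Hoxb7 stood at 1.61 and 1.31 and Hoxb6 at 1.12 and 1.43, so these 5 thoracic genes passed in both pairs. Members that passed in the Nrf2flox/flox pair alone included Hoxb9 (3.45), Hoxa6 (3.07), Hoxa7 (2.61, interval 2.31 to 2.91), Hoxc5 (2.23) and Hoxc4 (1.96), and in the other pair alone Hoxb5 passed (1.20, interval 0.89 to 1.52). Whether the pairs differ was not tested. These 2 pairs share no library.

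**Figure D4:**
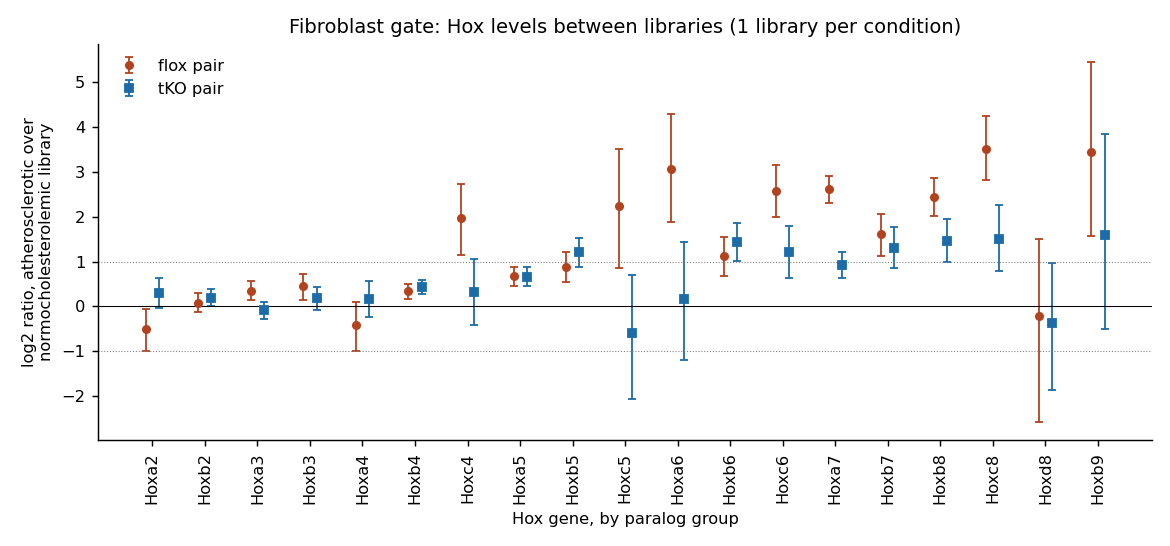
Log2 ratio of the fibroblast level in the atherosclerotic over the normocholesterolemic library for Hox genes in order of paralog group, for the Nrf2flox/flox pair (circles) and the Nrf2Cdh5tKO pair (squares), with 95% counting intervals, and dotted lines at 2-fold. Ratios of groups 2 to 4 on clusters A and B lie between the dotted lines, and those of groups 6 to 8, apart from Hoxd8, lie above 0 in both pairs.

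In fibroblasts the summed ratios by diet were larger for higher paralog groups. By the bounds of the shares above, groups 1 to 3 had log2 ratios of 0.20 (Nrf2flox/flox pair) and 0.11 (other pair). Groups 4 to 8 stood at 0.96 and 0.74. Groups 9 to 13 stood at 2.16 (0.70 to 3.51) and 1.29 (-0.12 to 2.73), from 8 against 14 and 11 against 9 UMIs. The sums that follow use other bounds, which were not the planned ones. With them group 4, which holds Hoxb4, is counted with groups 1 to 3. The sum of groups 1 to 4 stood at 119, 109, 141 and 127 CPM in fibroblasts, a log2 ratio of 0.24 (0.14 to 0.34) in the Nrf2flox/flox pair and 0.22 (0.13 to 0.30) in the other. Group 5 stood at 26.8, 22.4, 45.4 and 38.96 CPM, ratios of 0.76 and 0.80. Groups 6 to 9 stood at 15.4, 20.4, 69.6 and 45.8 CPM, ratios of 2.17 (2.01 to 2.34) and 1.17 (0.997 to 1.34). Cluster C stood at 2.80, 5.27, 17.7 and 9.93 CPM. Within the subsets, groups 6 to 9 stood at 15.0, 35.6, 76.5 and 81.3 CPM in Comp Fmod cells, at 27.6, 18.4, 55.5 and 24.8 CPM in Pi16 Dact2 cells and at 6.71, 14.9, 23.9 and 9.94 CPM in Penk Epyc Fgf10 cells. In fibroblasts of no subset they stood at 15.5, 24.2, 91.2 and 53.8 CPM. The Nrf2flox/flox pair was thus higher in each of these. The other pair was lower in Penk Epyc Fgf10 cells and higher in Pi16 Dact2 cells, with overlapping intervals in both. In the libraries with at least 10 Cilp Meox1 cells, which leave out atherosclerotic Nrf2flox/flox, that subset stood at 7.46, 6.71 and 70.0 CPM. The last value rests on 12 UMIs in 14 cells.

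Some of the 11 heart field factors, picked for this description, also differed between the same fibroblast libraries. The rest of that list and the 20 pharyngeal and neural crest factors are not shown here, so no direction can be read for either list. Tbx20 stood at 45.2, 40.6, 0.879 and 1.64 CPM, Tcf21 at 109, 144, 29.7 and 26.5 CPM, and Gata4, a cardiac factor, at 7.08, 9.13, 0 and 0.597 CPM. Wt1, a mesothelial and epicardial factor, stood at 3.603, 3.74, 0.293 and 0.448 CPM. Each of these was higher in both normocholesterolemic libraries than in both atherosclerotic ones. In the fibroblast gate the 3 genes of the mesothelial list summed to 10.9, 35.2, 0 and 6.34 CPM and the 4 genes of the cardiomyocyte list to 9.82, 33.4, 2.64 and 2.16 CPM, and their part in the result was not tested. Diet, the piece of tissue that was taken and the pool of mice cannot be told apart with 1 library per condition.

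Between genotype labels few members passed. In normocholesterolemic fibroblasts Hoxc5 (1.48, interval 0.46 to 2.54) and Hoxa6 (1.29, 0.15 to 2.47) were higher in the library labelled Nrf2Cdh5tKO, 2 of 19 genes (2.7% of all genes). In atherosclerotic fibroblasts Hoxa6 (-1.61, -3.00 to -0.30) and Hoxc8 (-1.11, -1.77 to -0.46) were lower there, 2 of 20 (1.38% of all genes). In smooth muscle cells 4 of 12 genes were higher in the atherosclerotic than in the normocholesterolemic Nrf2flox/flox library (4.54% of all genes), among them Hoxb6 (1.55, 0.28 to 2.60), Hoxa5 (1.48, 0.76 to 2.13) and Hoxb3 (1.45, 0.75 to 2.09). Between the libraries labelled Nrf2Cdh5tKO only Hoxb7 of 13 passed (1.57, 0.55 to 2.64), against 2.08% of all genes. By genotype label Hoxb8 was higher in normocholesterolemic smooth muscle cells (2.10, 0.30 to 3.95), 1 of 15 (3.27% of all genes), and Hoxb3 (-1.07, -1.84 to -0.26) and Hoxb4 (-1.05, -1.64 to -0.43) were lower in atherosclerotic ones, 2 of 11 (2.38% of all genes), and neither passed without the cell filter. Groups 6 to 9 stood at 13.9, 17.3, 31.3 and 32.4 CPM in smooth muscle cells, with ratios by diet of 1.17 (0.51 to 1.77) and 0.91 (0.50 to 1.32). For groups 1 to 4 the ratios were 0.70 (0.44 to 0.94) in the Nrf2flox/flox pair and -0.25 (-0.42 to -0.07) in the other. In the Nrf2flox/flox pair the 2 intervals overlapped. All Hox genes together had ratios of 0.82 and -0.02. The content of the smooth muscle gate also differed between libraries. Its pericyte list summed to 289, 434, 919 and 610 CPM and its cardiomyocyte list to 356, 269, 110 and 58.0 CPM. Their part in the Hox ratios was not tested.

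HoxC genes were detected in a small set of fibroblasts, a split that was chosen after its values were seen and is given as a description. A HoxC UMI was found in 96, 76, 57 and 81 fibroblasts, which are 2.15%, 4.68%, 12.0% and 6.80% of each library and 310 of 7756 in all. These cells were deeper, with a median of 14214 UMIs against 12947. Compared with the other fibroblasts of the same library, Hoxa7 stood at 57.0 against 2.55 CPM, 68.5 against 4.26, 66.0 against 18.2 and 69.5 against 9.80. Hoxb8 stood at 27.8 against 1.45, 15.1 against 1.78, 39.1 against 7.58 and 26.7 against 5.10 CPM, and Hoxa5 at 40.3 against 18.3, 59.1 against 13.4, 67.1 against 24.4 and 46.6 against 23.1 CPM. Cells with a HoxC UMI were higher in all 4 libraries for these 3 genes. Hoxa3 had the lower value with a HoxC UMI in each library, at 14.6 against 23.6, 23.8 against 27.0, 17.9 against 31.7 and 24.8 against 25.3 CPM, although the counting intervals of the second and the last ratio held 0 on the log2 scale. Among 11521 genes with at least 200 UMIs in fibroblasts and outside HoxC, 22 were higher past 2-fold in every library (0.191%), and Hoxb8, Hoxb6, Hoxa7, Hoxb7, Hoxb5 and Hoxa5 were 6 of them. The others included Pax1 and Gsc, factors of pharyngeal and skeletal mesenchyme, Tbx1, a factor of the pharynx, and Sfrp4, a secreted Wnt inhibitor.

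A further 48 genes were lower past 2-fold in every library (0.417%). Hand2 stood at 6.96 against 49.3, 15.9 against 55.1, 2.24 against 43.8 and 13.3 against 53.2 CPM, and Tcf21 at 18.8 against 112, 44.0 against 149, 2.24 against 33.9 and 6.66 against 28.2 CPM. Msx1, a factor of the neural crest, was lower too, for example at 27.4 against 59.5 CPM in the library labelled normocholesterolemic Nrf2Cdh5tKO. Foxd1, a mesenchymal factor, stood at 59.8 against 14.1, 44.0 against 13.9, 59.3 against 20.9 and 41.9 against 21.5 CPM, higher with HoxC in each library, and Aldh1a3, which makes retinoic acid, at 82.1 against 31.9, 82.2 against 37.6, 144 against 47.4 and 117 against 28.8 CPM. Pooled over the libraries, a HoxC UMI was found in 5.21% of Comp Fmod and 3.42% of Cilp Meox1 fibroblasts. The share was 7.21% (interval 5.61 to 9.09%) in Pi16 Dact2 and 2.87% (1.78 to 4.35%) in Penk Epyc Fgf10 cells. In Tfap2b Mab21l2 cells it was 5.26%, from 3 of 57 cells. Cells with a HoxC UMI were thus found in every subset, but subset and library were not separated here.

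**Figure D5:**
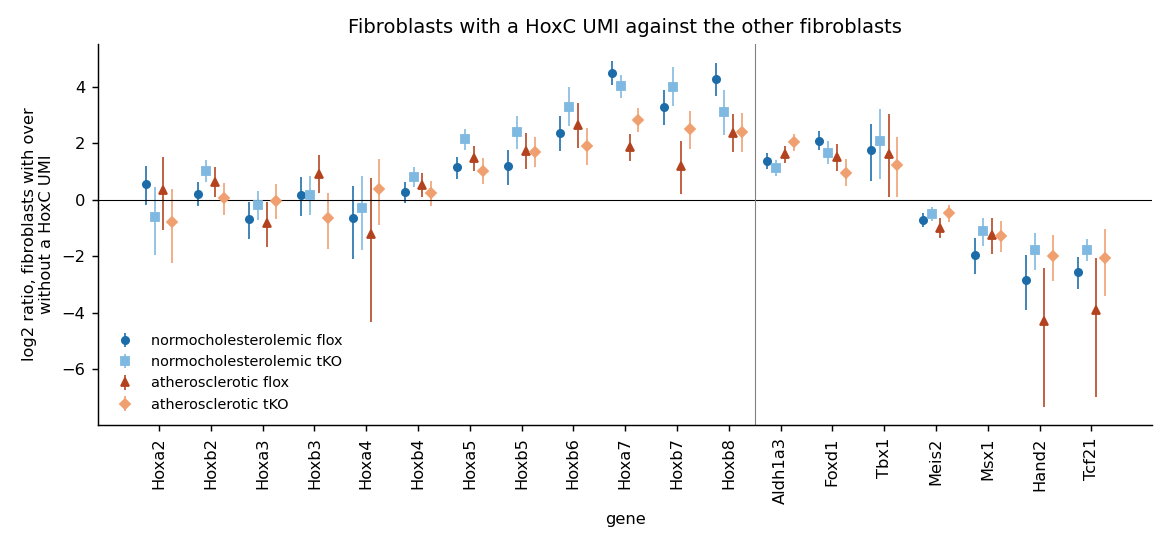
Log2 ratio of the level in fibroblasts with a HoxC UMI over that in the other fibroblasts, for 12 Hox genes and 7 further genes, with 1 marker per library and bars for the 95% counting interval. Hoxa7, Hoxb8 and Hoxa5 lie above 0 in each of the 4 libraries, and Hand2, Tcf21 and Msx1 lie below 0.

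Partners of the Hox proteins and regulators of the clusters were read as fixed lists, and genes named are among the 4 of most UMIs in their list. Hox proteins bind DNA together with Pbx, Meis and Pknox proteins. Meis2 stood at 148, 137, 141 and 134 CPM in fibroblasts and 85.1, 69.2, 77.0 and 94.7 CPM in smooth muscle cells, a difference of 0.82 (SE 0.17, adjusted p = 0.000556) without overlap. Meis1 stood at 26.9 to 31.6 CPM in fibroblasts, and Pknox1, at 19.9 to 25.8 CPM, was higher in leukocytes (25.9 to 36.1 CPM, -0.33, adjusted p = 0.0398). Of the 9 cofactors 8 were tested, 2 were higher in fibroblasts than in smooth muscle cells (27% of all genes), and against leukocytes 5 were higher and 3 lower (39.2% and 32.7% of all genes).

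Retinoic acid switches on anterior Hox genes in the embryo. Of 14 genes of its pathway 9 were tested, and 6 were higher and 1 lower in fibroblasts than in smooth muscle cells (27% and 19.7% of all genes). Aldh1a1, which makes retinoic acid, stood at 94.5, 114, 84.5 and 81.7 CPM in fibroblasts and 2.92, 1.90, 5.22 and 3.43 CPM in smooth muscle cells, a difference of 5.14 (SE 0.24, adjusted p = 2.82e-12). Rarg, a receptor, was higher by 1.49 (adjusted p = 8.29e-06), and Dhrs3, which removes retinaldehyde, was lower at -0.70 (adjusted p = 0.00629). Cdx1, Cdx2 and Cdx4, which act on the central Hox genes of the embryo, had 3, 0 and 0 UMIs in fibroblasts and were not tested. Of 20 pharyngeal and neural crest factors 13 were tested, and 5 were higher and 3 lower in fibroblasts than in smooth muscle cells, against the same 27% and 19.7% of all genes. Msx1 was higher by 2.11, Twist1 by 1.23 (adjusted p = 1.39e-05), Foxc1 was lower at -0.66 (adjusted p = 0.000207) and Hand2 was not called. Of 11 heart field factors 8 were tested, and 3 were higher and 2 lower in the same comparison (27% and 19.7% of all genes), with Tcf21 higher by 4.07 (adjusted p = 4.03e-12), Mef2c lower at -2.34 (adjusted p = 7.65e-10), and neither Gata6 nor Tbx20 called.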

How the data were processed

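Aortic arch tissue of pooled mice was dissociated, sorted for living cells and sequenced by the authors with 10x Chromium 3′ chemistry. Per the labels and file headers, the deposited values are raw UMI counts per gene and barcode, mapped to mm10 and counted with Cell Ranger 6.1.2, with called barcodes only. RNA free in the suspension was not subtracted, and 3′ tags do not resolve isoforms.

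From these counts, cells were kept, gated and summed per library and class, as the report states. The 39 members and the gene lists were chosen with earlier results of these data known. Sums were compared with edgeR 4.0.16 in R 4.3.3 by the quasi-likelihood test, two-sided, with the library as a block, TMM factors, the default filter on low counts and Benjamini-Hochberg adjustment at 0.05 (16 class sums, 9 residual degrees of freedom). Subsets needed 10 cells per library. Each SE of an edgeR difference is its absolute log2 value over the square root of the F statistic, and is not estimated by the model itself. Libraries are pools and form the block, so p-values set a class or subset difference against its variation over these 4 libraries. CPM intervals are exact Poisson, shares exact binomial (Clopper-Pearson) and ratios exact binomial. A level of 0 was replaced by 3 UMIs over the group for a bound. DESeq2 1.42.0, Scrublet in scanpy 1.11.5 and stricter gates were alternatives, and doublets stayed in. Levels are described in full for the 14 members with most UMIs, contrasts for the 5 called members with the largest change, and partner lists for their 4 genes with most UMIs. A few of these genes are not reported here, though the counts include them. The scripts were tested on simulated data. Sums and intervals were made with scipy 1.17.1 and pandas 2.3.3 under Python 3.11.15, and plots with matplotlib 3.10.9.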

Additional observations from a re-analysis of the deposited data

Results flagged for a closer look

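Some members moved in opposite directions between the genotype labels under the 2 diets. The values are log2 ratios of the library labelled Nrf2Cdh5tKO over the Nrf2flox/flox library, first in the normocholesterolemic and then in the atherosclerotic pair, with 1 library on each side, and the difference between the pairs was not tested. In fibroblasts Hoxa2 stood at -0.26 and 0.56, Hoxa6 at 1.29 and -1.61, Hoxa7 at 0.92 and -0.76, Hoxc6 at 0.70 and -0.66, and Hoxc8 at 0.90 and -1.11. In smooth muscle cells Hoxb3 stood at 0.60 and -1.07. The same 4 libraries enter the ratios by diet above, so these values are not separate from those. The share of all genes that reversed in this way is not given here.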

How the results depend on the processing

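Between conditions no paired analysis was possible, because each group has 1 library and the groups share only the replicate number 1. The tests of classes and subsets used the library as a block. Without the low-count filter, the Hox genes called higher were 8 in fibroblasts against smooth muscle cells (4 with it), 5 in endothelial cells against smooth muscle cells (3 with it, and 1 lower in place of 2), 6 in Comp Fmod and 1 in Pi16 Dact2 fibroblasts. With 1 more marker needed for a gate, 1 was higher and 1 lower in endothelial against smooth muscle cells, and Hoxa2 in endothelial cells against leukocytes turned from 3.78 to -4.36 and was not called. With only the classes compared in the fit, these counts were 1 and 0, and 4 genes were higher in endothelial cells than in leukocytes in place of 14, since 4 passed the filter. Without TMM factors the lower count of endothelial against smooth muscle cells was 0, and by DESeq2 it was 1. Against all other fibroblasts, 5 were lower in Penk Epyc Fgf10 cells and 1 was higher in Pi16 Dact2 cells. Without the cell filter 0 of the 2 lower smooth muscle genes between genotype labels in atherosclerotic mice passed 2-fold. In fibroblasts of no subset, an alternative chosen after seeing the data, 5 in place of 2 were higher between labels in normocholesterolemic mice. The share of all genes for that alternative is not given here, so the count describes these genes alone. Weighted equally, the libraries gave fibroblast shares of 40.8% for groups 1 to 3 and 58.8% for groups 4 to 8, and thinning gave 27.5%, 26.7%, 36.8% and 2.01% of fibroblasts, smooth muscle cells, endothelial cells and leukocytes with a Hox UMI. Beyond the filter and the fit named, the cause was not tested.

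Leaving out 1 library at a time gave 1 to 4 higher in fibroblasts against smooth muscle cells, 12 to 14 higher in endothelial cells against leukocytes, 2 to 5 higher and 0 to 1 lower in endothelial against smooth muscle cells, 2 to 9 higher in Comp Fmod, 0 to 2 higher and 0 to 3 lower in Pi16 Dact2, 0 to 3 lower in Penk Epyc Fgf10 and 0 to 7 lower in Cilp Meox1 fibroblasts. Calls over all genes moved in the same fits. They ran from 1043 to 1204 higher in Comp Fmod, from 180 to 367 lower in Penk Epyc Fgf10 and from 151 to 392 lower in Cilp Meox1 fibroblasts. The fibroblast share ran from 40.9 to 44.9% for groups 1 to 3 and from 54.9 to 58.7% for groups 4 to 8, and the smooth muscle share of groups 9 to 13 from 0.163 to 0.417%. Tfap2b Mab21l2 cells could not be fitted without the normocholesterolemic Nrf2flox/flox library, nor against all other fibroblasts. Of the values for single genes, 445 kept direction and side of the threshold over the other alternatives and 17 lost the call, and with a library left out 235 did and 37 lost it. Depth limits the endothelial values, most of which rest on fewer than 10 UMIs.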

Other observations

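Noncoding RNAs of the Hox clusters were also counted. Hotairm1, transcribed from the HoxA cluster, stood at 29.7, 24.9, 31.6 and 37.6 CPM in fibroblasts, at 60.1, 57.6, 84.9 and 76.3 CPM in smooth muscle cells, at 80.7, 79.2, 105 and 111 CPM in endothelial cells and at 8.10, 6.29, 4.99 and 2.92 CPM in leukocytes. Each endothelial or smooth muscle library was above each fibroblast library, and no test was run. Hoxb3os stood at 11.54, 14.7, 14.6 and 13.5 CPM in fibroblasts and at 32.7, 41.7, 16.97 and 33.0 CPM in smooth muscle cells. Hoxd3os1 had 12 UMIs in endothelial cells, 13 in fibroblasts and 2 in smooth muscle cells.

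Among smooth muscle cells, 120 had a Hoxa7 UMI and 1968 did not, a split chosen after the HoxC split of fibroblasts had been seen. In the pooled cells with Hoxa7, Hoxb7 stood at 24.1 against 1.77 CPM (log2 ratio 3.76, interval 3.18 to 4.35), Hoxb6 at 17.1 against 2.98 CPM (2.52, 1.92 to 3.09) and Hoxa5 at 24.1 against 10.4 CPM (1.20, 0.75 to 1.63). Hoxa3 stood at 22.2 against 24.3 CPM (-0.13, -0.58 to 0.29). Hand2 stood at 30.5 against 66.4 CPM (-1.12, -1.50 to -0.77). These ratios pool the libraries and carry no test.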
